A study of Mus musculus with 8 samples.

Results

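Serotonin is handled in the brain by a short chain of enzymes and carriers, and 8 mouse genes of that chain were read in 8 brain libraries: Tph2, Tph1, Slc6a4, Fev, Ddc, Maoa, Maob and Gchfr. They were matched by name alone, by a list drawn up with earlier results of these data known, as the rows of the deposited gene table that carry exactly these symbols, and each symbol matched 1 of the 21959 genes listed. Of the 8 genes, 6 had enough reads to be tested between the groups, and Fev and Gchfr fell under the filter on low counts and are given as reads only.

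Serotonin is made from tryptophan by tryptophan hydroxylase, the rate-limiting step, followed by aromatic amino acid decarboxylase. Neurons of the raphe nuclei in the brainstem make it with the enzyme that Tph2 encodes, under control of transcription factors such as Fev (Pet1), and take it back up after release through the transporter that Slc6a4 encodes. Their cell bodies lie in the raphe while their axons reach most of the brain, including the hypothalamus, so raphe transcripts in dissected tissue come mainly from cell bodies. Monoamine oxidases then break serotonin down.

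The study examined the effect of isoliensinine, a plant alkaloid, on sleep in mice, and poly(A)-selected RNA was sequenced. The 4 Model libraries are labelled wild type, brain and PCPA, short for para-chlorophenylalanine, which blocks tryptophan hydroxylase, and the 4 IsoL libraries wild type, brain and isoliensinine. According to the design text, the animals were female ICR mice treated over 7 days, pentobarbital was injected after the last treatment, and the hypothalamus was taken. Among the IsoL doses of 12.5, 25 and 50 mg/kg, the one sequenced is not stated, nor is it stated whether IsoL mice also received PCPA, so the comparison of IsoL with Model may be of isoliensinine without PCPA against PCPA, or of both agents against PCPA alone. Untreated and alprazolam-treated mice are not analysed here. Nothing in the labels says whether each library is a mouse of its own, and the p-values measure the spread between libraries, which may be technical.

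Summed read counts ran from 14262836 to 21620466 per library, and 3 reads, taken as the floor of detection, correspond to 0.138 to 0.210 CPM, the count scaled to library size. The summed level of the Y-linked genes Ddx3y, Eif2s3y, Kdm5d and Uty lay between 304 and 348 CPM in all 8 libraries, although the design text says female. The summed level of 15 hypothalamic marker genes was 206 to 242 CPM in Model and 82.0 to 169 in IsoL, and the groups did not overlap. Of these markers, 14 were tested and 1, Pmch, passed in edgeR, lower in IsoL. Markers of ependyma and choroid plexus summed to 31.7 to 61.7 CPM in Model but to 694 and 601 in IsoL 1 and IsoL 2, against 88.0 and 39.1 in IsoL 3 and IsoL 4. The excess in IsoL 1 and IsoL 2 lay in Ttr (609 and 521 CPM), Kl and Folr1. In the same libraries Foxj1 and Rsph1 lay within their Model range and Tmem212 near its own. Markers of cortex and hippocampus summed to 340 to 372 CPM in Model and to 475, 467, 371 and 363 in IsoL 1 to IsoL 4. The excess in IsoL 1 and IsoL 2 lay mainly in Slc17a7 (160 and 146 CPM), Neurod6 (19.8 and 14.3) and Neurod2 (16.2 and 12.3). None of the cortex and hippocampus markers passed in edgeR. The edgeR fit and the Slc6a4 to Tph2 ratio were therefore repeated without IsoL 1 and IsoL 2. The Maob to Maoa ratio and the correlations were not. In bulk tissue, fewer cells of a type and less RNA per cell cannot be told apart.

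The upstream sequences of the 3 members tied to raphe neurons are shown because Tph2 and Slc6a4 rose and fell together from library to library and Fev is their regulator. They are the 250 bases before the transcription start in RefSeq, build GRCm38.p6, written 5′ to 3′ on the gene's strand, with AGATAA, a core recognised by GATA factors, in capitals. They cover chr10:115185023-115185272 (minus strand), chr11:76998347-76998596 (plus strand) and chr1:74885409-74885658 (minus strand).
Tph2: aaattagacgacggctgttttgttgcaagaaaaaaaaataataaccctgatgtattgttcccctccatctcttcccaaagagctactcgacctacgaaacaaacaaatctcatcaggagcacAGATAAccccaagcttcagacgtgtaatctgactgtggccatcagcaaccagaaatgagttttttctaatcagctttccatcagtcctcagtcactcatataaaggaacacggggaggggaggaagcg
Slc6a4: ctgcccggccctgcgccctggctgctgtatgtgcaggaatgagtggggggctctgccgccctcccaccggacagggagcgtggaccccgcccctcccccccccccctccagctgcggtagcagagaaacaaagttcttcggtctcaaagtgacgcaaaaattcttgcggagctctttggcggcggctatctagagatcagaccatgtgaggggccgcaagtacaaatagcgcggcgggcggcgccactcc
Fev: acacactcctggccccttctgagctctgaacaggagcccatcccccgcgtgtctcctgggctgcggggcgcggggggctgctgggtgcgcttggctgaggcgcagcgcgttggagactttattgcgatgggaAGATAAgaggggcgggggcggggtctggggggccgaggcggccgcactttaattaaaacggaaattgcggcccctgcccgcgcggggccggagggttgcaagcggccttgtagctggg
Windows of 300 bases, 250 before and 50 from the start, were searched on both strands for AGATAA, for CCGGAA, an ETS-type core of the family Fev belongs to, and for the shorter GGAA that it contains. Counted from the first transcribed base as 0, AGATAA lay at -128 to -123 in Tph2 and at -118 to -113 in Fev, and was not in the Slc6a4 window. AGATAA occurs in 11.2% of all 32851 RefSeq mouse promoter windows. None of the matched members' windows held CCGGAA, which occurs in 14.9% of windows. GGAA, present in 96.0% of windows, occurred 5 times for Tph2, 2 times for Fev and 1 time for Slc6a4. The Tph2 window had 47.3% G and C, against 67.7% for Slc6a4, 69.0% for Fev and a median of 52.7% over all windows. Of the 8 members, 7 had an entry, all except Maob. No source used here names the build of the deposited table, so the gene positions below are the table's own and are not on the same coordinates as these windows.

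Tph2 (ENSMUSG00000006764, chromosome 10, 114914546 to 115020927, minus strand), which encodes the neuronal tryptophan hydroxylase, was, like Slc6a4, very uneven among libraries of the same group. Its reads numbered 25, 16, 203 and 158 in Model 1 to Model 4, or 1.75, 1.001, 14.1 and 10.7 CPM. They numbered 326, 58, 35 and 466 in IsoL 1 to IsoL 4, or 20.02, 3.36, 2.21 and 21.4 CPM. Each group thus held a pair of libraries with few Tph2 reads and a pair with many, and the highest library was 21.3 times the lowest. The mean was 6.90 ± 6.54 CPM in Model and 11.7 ± 10.4 in IsoL (SD, n = 4 each), so the difference between the groups was smaller than the spread inside either. In edgeR's quasi-likelihood test the log2 difference of IsoL minus Model was 0.79 with a standard error of 1.06 (95% interval -1.79 to 3.37, adjusted p = 0.794). The interval includes more than a 3-fold fall and more than a 10-fold rise, so neither is excluded by these libraries. The log2 difference was 0.06 in limma voom, and it was 0.31 without IsoL 4, 0.42 without Model 2, 0.43 without IsoL 1, 0.48 without Model 1 and 1.41 without Model 3. Without both IsoL 1 and IsoL 2 it was 0.82. The SD of log2 CPM within groups was 1.75, which ranked 10 among the 14536 tested genes.

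Slc6a4 (ENSMUSG00000020838, chromosome 11, 76889429 to 76923166, plus strand), the serotonin transporter, had 15, 8, 110 and 62 reads in Model 1 to Model 4 and 275, 39, 22 and 285 in IsoL 1 to IsoL 4. In CPM these are 1.05, 0.501, 7.65 and 4.21, and 16.9, 2.26, 1.39 and 13.1. The same 4 libraries that were low in Tph2 were low in Slc6a4, and only IsoL 1 and IsoL 4 changed places in the order. The means were 3.35 ± 3.30 CPM in Model and 8.40 ± 7.76 in IsoL (SD, n = 4 each), with a log2 difference of 1.35 (standard error 1.08, 95% interval -1.26 to 3.96, edgeR adjusted p = 0.650). That difference was 0.58 in limma voom, 0.79 without IsoL 1, 1.16 without both IsoL 1 and IsoL 2, and 2.15 without Model 3. The within-group SD of 1.71 ranked 12 of all tested genes. The highest library was 33.7 times the lowest, a wider range than for Tph2.

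Fev (ENSMUSG00000055197, chromosome 1, 74920668 to 74924578, minus strand), the ETS-family transcription factor that defines serotonergic neurons, was near the floor. It had 5, 1, 8 and 2 reads in Model 1 to Model 4 and 10, 2, 3 and 14 in IsoL 1 to IsoL 4, which sums to 16 and 29 reads. Its highest counts, 14, 10 and 8, were in IsoL 4, IsoL 1 and Model 3, the libraries with the most Tph2 reads, but Model 4, with 158 Tph2 reads, had 2. At this depth a difference between the groups was not detectable, and with no filter its edgeR adjusted p was 0.771.

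**Figure D1:**
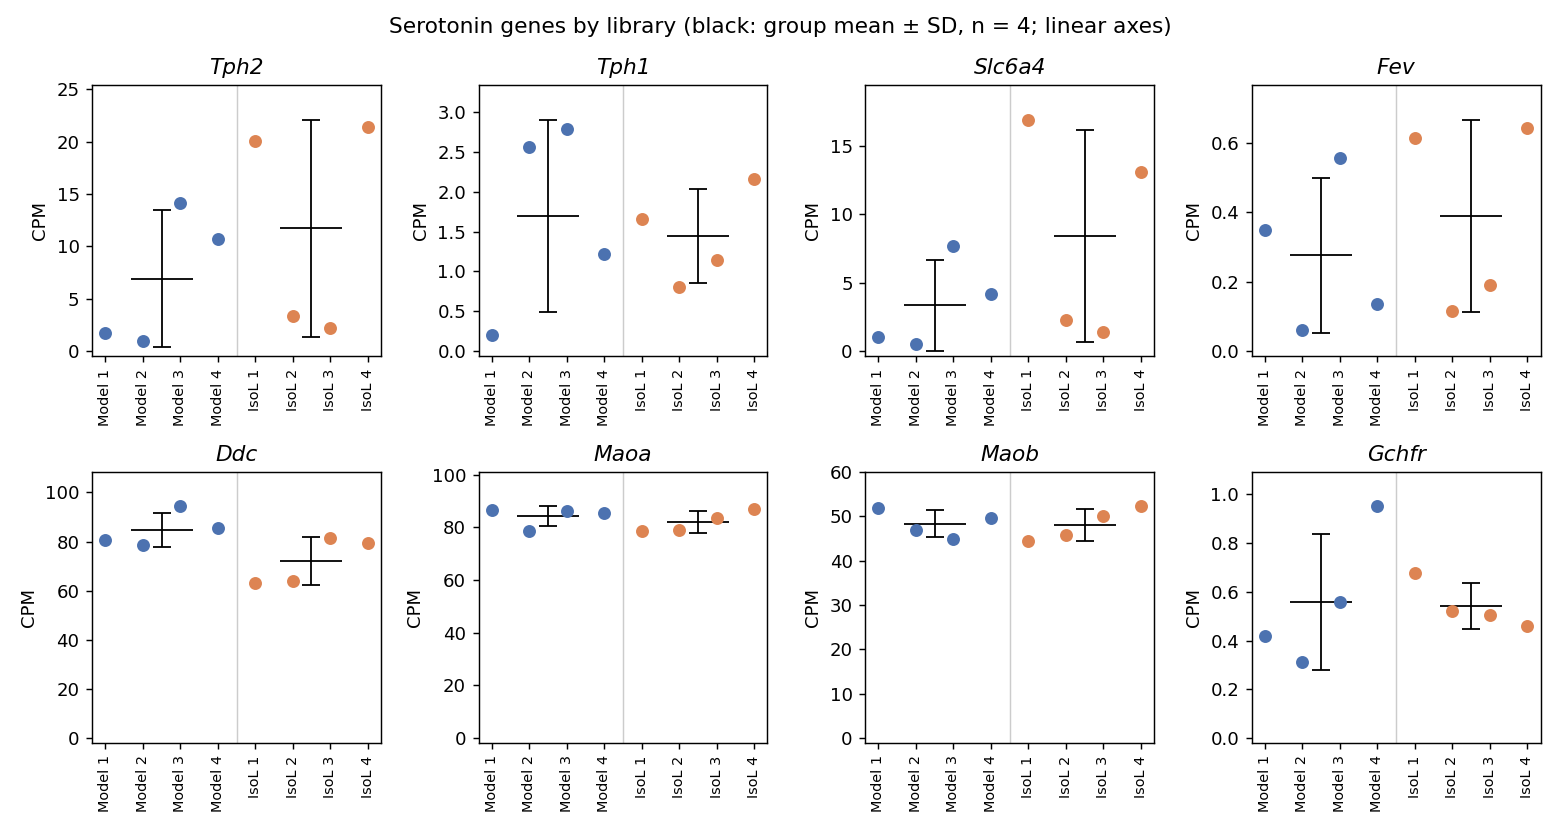
Level of each of the 8 members in CPM (vertical axes, linear, starting near 0) in each library (horizontal axes), with the group mean and SD in black (n = 4). Tph2 and Slc6a4 each show 2 low and 2 high libraries in both groups, whereas Maoa and Maob lie close together in all 8.

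Tph2 and Slc6a4 were so alike over the libraries that Slc6a4 ranked 1 of 14037 genes by likeness to Tph2. Likeness was Pearson's correlation of log2 CPM over the 8 libraries, among tested genes with a mean of at least 1 CPM. It was 0.98 for Slc6a4, with a Spearman correlation of 0.976, and 0.99 after the group means were removed. No p is given, because the 8 libraries lay in separate sets, 4 between 1.001 and 3.36 CPM of Tph2 and 4 between 10.7 and 21.4 CPM, and either set is too small for a value of its own. Without Model 2 and IsoL 4, the libraries farthest from the median of Tph2, it was 0.97. On the log2 scale Slc6a4 rose by 1.01 per unit of Tph2, which is close to proportional. A further 28 genes correlated above 0.9, but the steepest of them rose by 0.30 per unit.

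**Figure D2:**
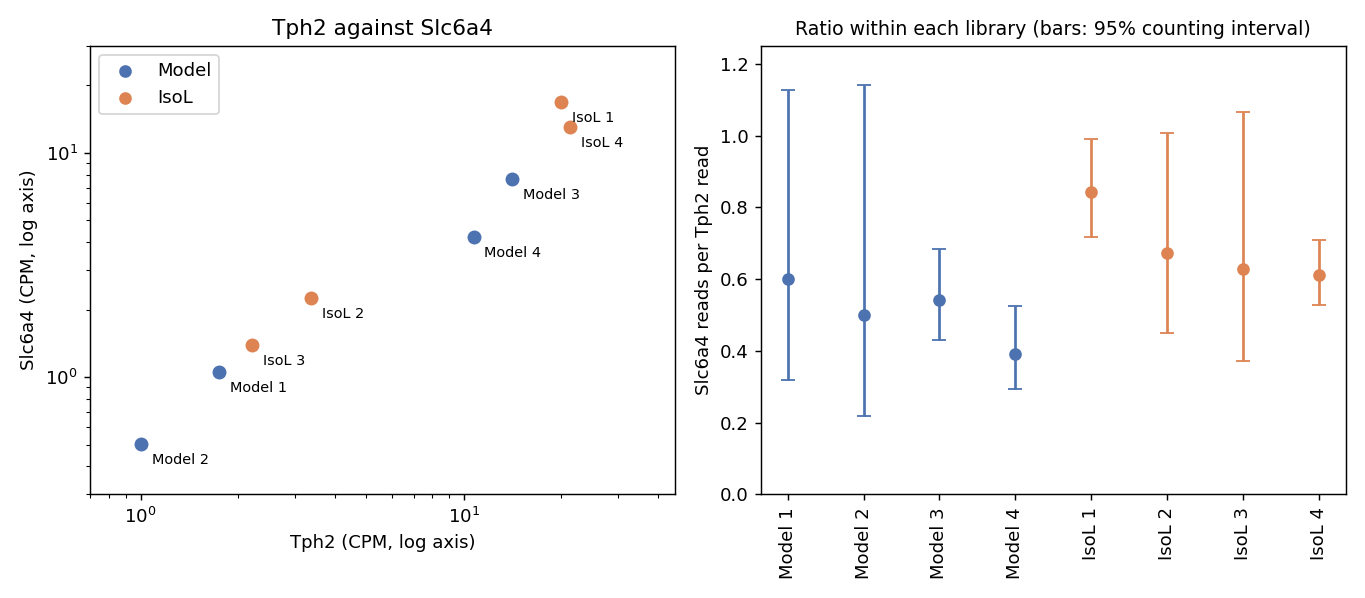
Left, Tph2 against Slc6a4 in CPM on log axes, 1 point per library; right, Slc6a4 reads per Tph2 read in each library, with 95% counting intervals. The points on the left follow a single line from Model 2 (1.001 and 0.501 CPM) to IsoL 4 (21.4 and 13.1 CPM), and on the right the 4 Model ratios lie below the 4 IsoL ratios while most intervals overlap.

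Within a library, the ratio of Slc6a4 to Tph2 reads varied far less than either gene. It was 0.6, 0.5, 0.542 and 0.392 in Model 1 to Model 4 and 0.844, 0.672, 0.629 and 0.612 in IsoL 1 to IsoL 4. All 4 IsoL ratios were above all 4 Model ratios, by a narrow gap between 0.6 in Model 1 and 0.612 in IsoL 4. Counting error is wide where reads are few, with Wilson 95% intervals of 0.320 to 1.13 in Model 1 and 0.219 to 1.14 in Model 2, against 0.528 to 0.709 in IsoL 4. The means were 0.509 ± 0.0876 and 0.689 ± 0.106 (SD, n = 4 each), 1.36-fold apart or 0.44 on the log2 scale. A two-sided exact permutation test over the 70 assignments gave p = 0.0286, the smallest it can give. After Benjamini-Hochberg adjustment over the 2 ratios tested it was 0.0571, so the difference did not pass. With 4 libraries per group, the adjusted p could fall under 0.05 only if the p of the other ratio did too. The adjusted test therefore could not decide on this ratio alone. Without IsoL 1 and IsoL 2 the log2 difference was 0.30 (exact permutation p = 0.133, with 4 against 2 libraries). The remaining IsoL ratios were still above all 4 Model ratios. With so few libraries the exact test cannot give a p under 0.05, so it could not decide here.

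The other genes most like Tph2 were not on the list of raphe markers and moved little. Among them were Acot8, Abca9, Kif7, Ecm2 and Dipk2b (all 0.94), Tek, the angiopoietin receptor of endothelium, Ldhd and Kif13b (all 0.93) and Nmral1 (0.92). Their slopes on Tph2 ran from 0.05 for Kif13b to 0.21 for Dipk2b. The 5 genes most opposed to it were Entpd3 and Sesn2 (both -0.98), Thoc2l (-0.97), Uqcrfs1 (-0.96) and Mpv17l (-0.95). Among 14037 genes ranked over 8 libraries, 37 lay under -0.9 and 29 above 0.9. Slc6a4 alone combined a correlation above 0.9 with a slope above 0.5.

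Other markers of serotonergic neurons followed Tph2 to different degrees. Slc17a8, the vesicular glutamate transporter found in part of the raphe neurons, correlated at 0.88 and was at 1.89, 1.94, 5.29 and 4.41 CPM in Model 1 to Model 4 and 5.77, 2.55, 4.30 and 5.36 in IsoL 1 to IsoL 4. Htr5b, a serotonin receptor gene expressed in raphe, correlated at 0.73 and was at 0.350, 0.688, 4.59 and 3.26 CPM, and 3.68, 3.07, 4.05 and 4.35. Both were lowest in Model 1 and Model 2, which were also low in Tph2, but IsoL 3 had 4.30 CPM of Slc17a8 and 4.05 of Htr5b beside only 2.21 of Tph2. Lmx1b, a factor needed for serotonergic identity that other neurons also use, correlated at -0.18, the autoreceptor gene Htr1a at 0.15 and Htr1b at -0.68. The 11 such markers besides the members summed to 97.8 to 105 CPM in Model and 89.98 to 111 in IsoL, and none of the 11 passed. Much of that sum was Sncg, Htr1b and Htr1a, with Model means of 26.5, 21.2 and 18.3 CPM. Sncg correlated with Tph2 at -0.13, so the sum mostly reflects genes that did not follow Tph2. Over the 17 other marker lists, the tested gene closest to Tph2 was Slc6a5, the glycine transporter of hindbrain neurons (0.77), and the most opposed was Sim1 of the hypothalamus (-0.77). The 8 Hox genes of the hindbrain list had 0 to 6 reads over all libraries, and the summed hindbrain list was higher in all 4 IsoL libraries than in any Model library. The part of this shift in the raphe transcripts was not tested. Dbh, the enzyme that makes noradrenaline, had 5 reads in all.

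**Figure D3:**
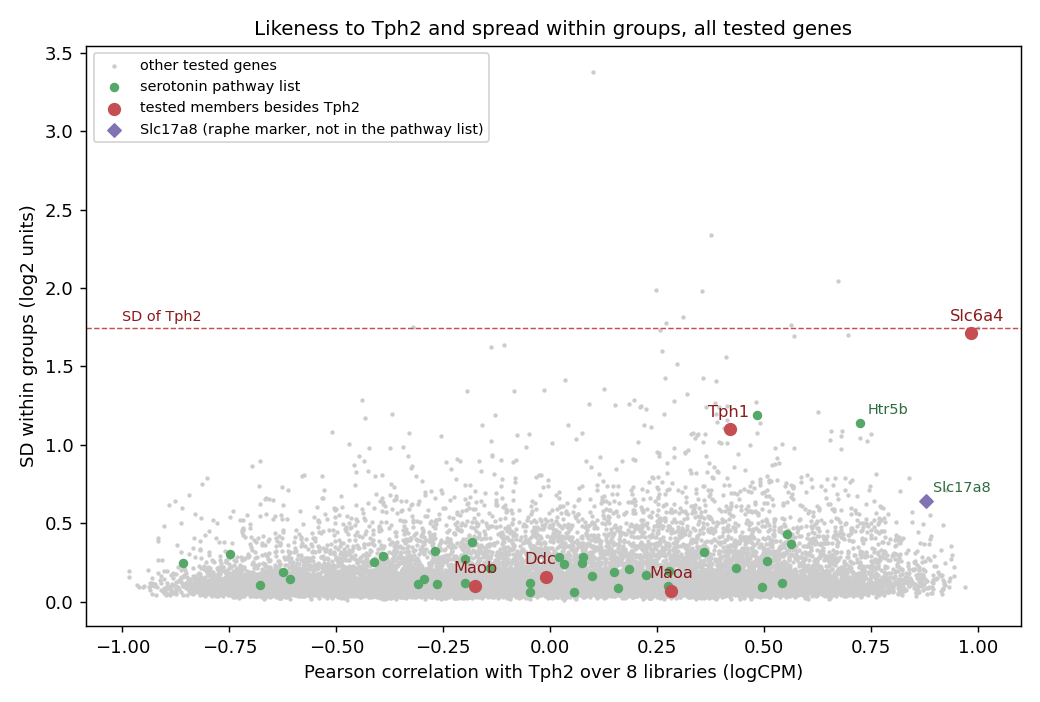
Each tested gene by its correlation with Tph2 over 8 libraries (horizontal axis) and its SD of log2 CPM within groups (vertical axis); red points are the tested members, green the pathway list, the diamond Slc17a8 and the dashed line the SD of Tph2. Slc6a4, at 0.98 and 1.71, stands alone at the right edge, and Ddc, Maoa and Maob lie at the bottom.

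Tph1 (ENSMUSG00000040046, chromosome 7, 46294065 to 46321961, minus strand) encodes the tryptophan hydroxylase of the gut and the pineal gland. It had 3, 41, 40 and 18 reads in Model 1 to Model 4, or 0.210, 2.57, 2.78 and 1.22 CPM, and 27, 14, 18 and 47 reads in IsoL 1 to IsoL 4, or 1.66, 0.812, 1.14 and 2.15 CPM. Model 1, at the floor of 3 reads, was the low library, and the 4 IsoL libraries lay inside the Model range. The log2 difference was -0.22 (standard error 0.56, 95% interval -1.48 to 1.03, edgeR adjusted p = 0.899). It changed sign in limma voom and when Model 2 or Model 3 was left out. Its correlation with Tph2 was 0.42. Model 2 was low in Tph2 and near the top in Tph1.

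Levels of pineal genes are given beside it, and their part in Tph1 was not tested. Sag, a photoreceptor and pineal arrestin, was at 0.489, 2.94, 2.30 and 0.951 CPM in Model 1 to Model 4, and at 2.52, 1.51, 1.52 and 1.97 in IsoL 1 to IsoL 4. Crx, a pineal and retinal transcription factor, had no reads in Model 1 and Model 4 and 1.44 CPM in Model 2. Aanat, the melatonin-forming acetyltransferase, lay between 1.26 and 2.28 CPM, and Asmt, the last enzyme of melatonin synthesis, had 9 reads in all 8 libraries. Tph1, Sag, Crx and Aanat were all lowest in Model 1, where Crx, with no reads, was level with Model 4. The 6 listed pineal genes, of which Tph1 is 1, summed to 2.098 to 9.14 CPM in Model and 4.64 to 7.43 in IsoL. Of 8 mast cell markers, a cell type that also uses Tph1, Kit was the only one tested, and the other 7 had 1 to 18 reads in all.

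**Figure D4:**
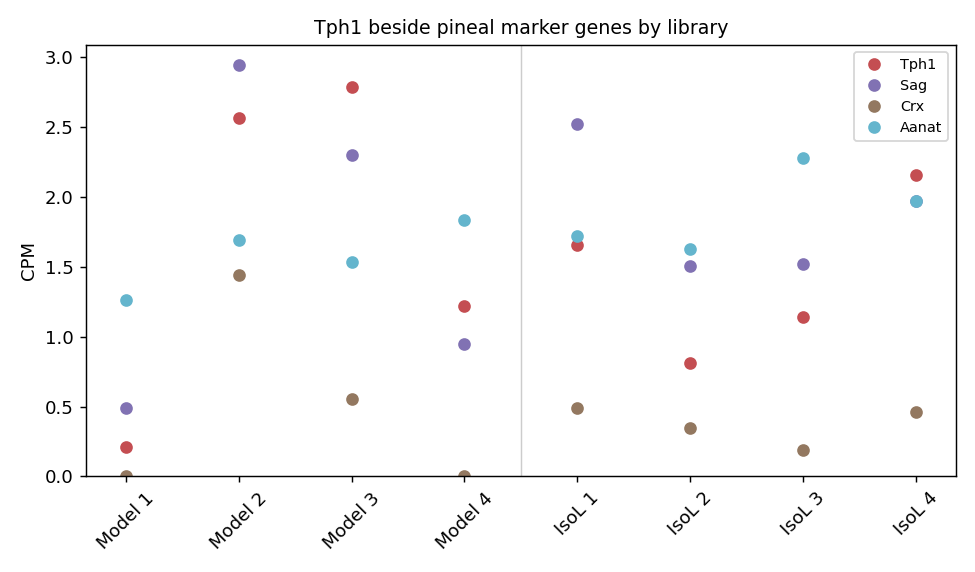
Level of Tph1 and of the pineal marker genes Sag, Crx and Aanat in CPM (vertical axis, linear from 0) in each library. Tph1 and Sag are at their lowest in Model 1 (0.210 and 0.489 CPM) and both exceed 2 CPM in Model 2 and Model 3; in IsoL 4 the point of Sag lies under that of Aanat, both at 1.97 CPM.

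Ddc (ENSMUSG00000020182, chromosome 11, 11764101 to 11848144, minus strand) encodes aromatic amino acid decarboxylase, which serves dopamine as well as serotonin synthesis. It was at 80.7, 78.8, 94.3 and 85.6 CPM in Model 1 to Model 4 and at 63.1, 64.1, 81.6 and 79.3 in IsoL 1 to IsoL 4. IsoL 1 and IsoL 2 lay under every Model library, whereas IsoL 3 and IsoL 4 lay within the Model range. The means were 84.9 ± 6.94 and 71.99 ± 9.79 CPM (SD, n = 4 each). The log2 difference of -0.24 (standard error 0.09, 95% interval -0.44 to -0.03) had an unadjusted p of 0.0258 but did not pass in edgeR (adjusted p = 0.304). Without IsoL 1 and IsoL 2 it was -0.08.

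Markers of dopaminergic neurons, which hold Ddc, were also low in IsoL 1 and IsoL 2, and their part in the Ddc values was not tested. Th, the rate-limiting enzyme of dopamine synthesis, was at 70.5, 50.5, 76.3 and 78.5 CPM in Model 1 to Model 4 and 48.8, 49.8, 67.9 and 62.0 in IsoL 1 to IsoL 4. Slc6a3, the dopamine transporter, was at 128 to 159 CPM in Model and at 92.0, 108, 131 and 128 in IsoL 1 to IsoL 4. The 9 listed dopaminergic genes summed to 433 to 505 CPM in Model and 345 to 453 in IsoL, with IsoL 1 and IsoL 2 lowest. All 8 tested were below Model in the fit and none passed. Ntsr1, Chrna6 and Drd2 were lower in all 4 IsoL libraries than in any Model library, and the other tested markers overlapped. Among all tested genes 4.42% were lower without overlap. Ntsr1 was at 14.3, 17.0, 15.2 and 17.2 CPM in IsoL 1 to IsoL 4, against 19.8 to 24.3 in Model. Ddc did not share this pattern, as its IsoL 3 and IsoL 4 values lay within the Model range. In Model 2, Th was at the level of IsoL 1 and IsoL 2 while Ddc, at 78.8 CPM, was above both. Ddc had a correlation of -0.01 with Tph2.

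Maoa (ENSMUSG00000025037, chromosome X, 16485937 to 16554057, plus strand) and Maob (ENSMUSG00000040147, chromosome X, 16575521 to 16683605, minus strand) encode the 2 monoamine oxidases and lie next to each other, tail to tail. Maoa prefers serotonin as its substrate. It was at 86.4, 78.7, 86.3 and 85.4 CPM in Model 1 to Model 4 and 78.4, 78.8, 83.6 and 87.1 in IsoL 1 to IsoL 4, and the groups overlapped throughout. The log2 difference was -0.04 (standard error 0.05, 95% interval -0.15 to 0.08, edgeR adjusted p = 0.798). Maob, the form of astrocytes and of serotonergic neurons themselves, was at 51.9, 47.0, 44.9 and 49.7 CPM and at 44.4, 45.9, 50.0 and 52.3. Its log2 difference was -0.01 (standard error 0.07, 95% interval -0.15 to 0.14, edgeR adjusted p = 0.980). Together these 95% intervals run from -0.15 to 0.14 on the log2 scale, for libraries whose spread may be technical. Markers of astrocytes summed to 3224 to 3709 CPM in Model and 3867 to 3930 in IsoL, without overlap between the groups. Much of that sum was Slc1a2, with means of 1924 CPM in Model and 2197 in IsoL, and none of the 7 markers passed in edgeR. Their part in the Maob values was not tested.

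The balance of the oxidases was steady. Maob reads per Maoa read lay between 0.520 and 0.601 in Model and between 0.566 and 0.6 in IsoL, with means of 0.575 ± 0.0376 and 0.587 ± 0.0159 (SD, n = 4 each). The log2 difference of 0.03 was within the spread (two-sided exact permutation p = 0.686, 0.686 after adjustment over the 2 ratios). Among Ddc, Maoa, Maob and Gchfr, 6 pairs were correlated over the 8 libraries. The highest was Ddc with Maoa (Pearson 0.77, exact permutation p = 0.0199, 0.119 adjusted over the 6; Spearman 0.595, p = 0.132), and it was 0.38 without the 2 libraries farthest from the median of Ddc. Maoa with Maob gave 0.66 (exact permutation p = 0.0903, adjusted 0.271; Spearman 0.714, p = 0.0576) and 0.50 without the 2 farthest. None of the 6 passed.

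Gchfr (ENSMUSG00000046814, chromosome 2, 118998254 to 119002871, plus strand) encodes the feedback regulator of GTP cyclohydrolase, which makes the cofactor of tryptophan hydroxylase. It had 6, 5, 8 and 14 reads in Model 1 to Model 4 and 11, 9, 8 and 10 in IsoL 1 to IsoL 4. The IsoL counts lay inside the Model range, and no difference was detectable at this depth. Its correlation with Tph2, on these few reads, was 0.62.

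Of the 6 tested members, 0 passed an edgeR adjusted p of 0.05, where 0.275% of all tested genes passed, 0.117% higher and 0.158% lower in IsoL. At an unadjusted p under 0.05 there was 1, Ddc, against 13.2% of tested genes. No tested member had groups that did not overlap, against 8.48% of tested genes. DESeq2 and limma voom also called 0 members, with 1 at an unadjusted p under 0.05 in each.

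Per length, the members fell into 2 tiers. In FPKM, which scales reads for gene length and depth, Maoa lay between 18.7 and 21.1 over the 8 libraries, Ddc between 14.1 and 21.3 and Maob between 15.8 and 18.9. These 3 held the top places in every library, and their ranges overlap. By their highest library, Tph2 followed with 0.350 to 7.49 FPKM, then Slc6a4 with 0.111 to 3.71, Gchfr with 0.488 to 1.47, Tph1 with 0.0334 to 0.454 and Fev with 0.0389 to 0.400. The order within this lower tier changed between libraries: Tph2 led it in Model 3, Model 4, IsoL 1, IsoL 2 and IsoL 4, and Gchfr in Model 1, Model 2 and IsoL 3. The highest Tph2 library stayed below the lowest Ddc library.

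The wider serotonin pathway list held 46 other genes, of which 38 were tested. None passed in edgeR. In the fit 17 were below Model and 21 above, with a median log2 difference of 0.03 against 0.00 for all tested genes. At an unadjusted p under 0.05 there were 8, or 21.1% of the list, against 13.2% of tested genes. Groups that did not overlap were found for 7 genes, or 18.4%, against 8.48% of tested genes. Slc18a2, Pcbd1, Gch1 and Nkx2-2 were the 4 that were lower in IsoL, where 4.42% of tested genes were lower without overlap. Gata3, Aldh2 and Kyat1 were the 3 that were higher, against 4.05%.

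In the transport group Slc18a2, the vesicular carrier that loads serotonin and the other monoamines, was at 116, 128, 131 and 127 CPM in Model 1 to Model 4 and 93.3, 88.8, 103 and 113 in IsoL 1 to IsoL 4. Its log2 difference was -0.34 (standard error 0.07, edgeR adjusted p = 0.0687). It passed with no filter (edgeR adjusted p = 0.0406), in DESeq2 (0.0035), in limma voom (0.0361) and in edgeR without IsoL 4 (0.0477). Without IsoL 1 and IsoL 2 its log2 difference was -0.22 (edgeR unadjusted p = 0.0084, adjusted p = 0.365). Slc22a3, a low-affinity monoamine transporter, had a log2 difference of -0.48 (edgeR adjusted p = 0.259).

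In the cofactor group, which makes and recycles tetrahydrobiopterin, Pcbd1, a recycling enzyme, was at 24.6, 29.4, 23.7 and 23.2 CPM in Model 1 to Model 4 and 14.9, 18.7, 21.3 and 19.4 in IsoL 1 to IsoL 4. Its log2 difference was -0.44 (standard error 0.11, edgeR adjusted p = 0.113), and it passed in DESeq2 (adjusted p = 0.0248). Gch1, GTP cyclohydrolase itself, had means of 8.71 ± 1.10 CPM in Model and 6.76 ± 0.931 in IsoL (SD, n = 4 each; edgeR adjusted p = 0.282). The other 5 cofactor genes had no unadjusted p under 0.05, and the median log2 difference of the 7 was 0.00. Dopaminergic neurons also use Slc18a2 and this cofactor. The dopaminergic sums given for Ddc apply here too, and their part was not tested.

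Among the identity factors Gata3, which acts in caudal raphe neurons and in other midbrain and hindbrain neurons, was at 1.96, 3.32, 3.76 and 2.78 CPM in Model 1 to Model 4 and 7.25, 5.45, 4.30 and 6.97 in IsoL 1 to IsoL 4. Its log2 difference of 1.02 (standard error 0.22) had an edgeR adjusted p of 0.0770, and it passed with no filter (0.0406) and in DESeq2 (0.0050). Of 7 markers of the dorsal midbrain, 3 passed in edgeR and were higher in IsoL: Dmbx1, Tfap2d and Mab21l2. The summed level of the 7 was 35.2 to 45.6 CPM in Model and 38.3 to 58.3 in IsoL. The 10 hindbrain markers summed to 8.32 to 13.7 CPM in Model and 16.3 to 20.5 in IsoL, and the groups did not overlap. Nearly all of that sum was Glra1, a glycine receptor gene (log2 difference 0.54, edgeR adjusted p = 0.116), and Slc6a5 (1.28, 0.108), which did not pass. The part of these regional markers in the Gata3 difference was not tested. Without IsoL 1 and IsoL 2 the log2 difference of Gata3 was 0.94 (edgeR adjusted p = 0.316), about as large as with all libraries. Of the 9 identity factors, 6 were below Model and 3 above in the fit.

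In the remaining groups Aldh2, which oxidises the aldehyde that monoamine oxidase leaves, averaged 61.8 ± 5.35 CPM in Model and 70.5 ± 1.20 in IsoL (SD, n = 4 each), a log2 difference of 0.19 (edgeR adjusted p = 0.209). Of the 14 genes of tryptophan supply and the kynurenine route, 9 were tested, with 0 at an unadjusted p under 0.05 and a median log2 difference of 0.10. The largest of the 9 was Afmid, at 0.50. The 4 receptor genes had a median of 0.31, with Htr5b at 0.78 (standard error 0.62) and Htr1d at 0.47 (unadjusted p = 0.0489), and none passed in edgeR.

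**Figure D5:**
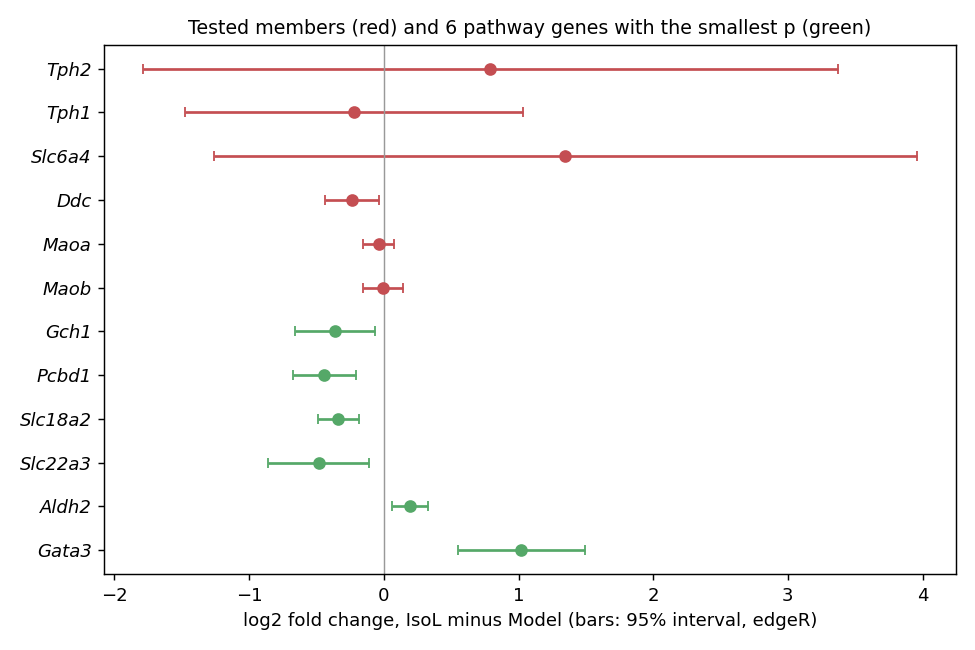
log2 difference of IsoL minus Model (horizontal axis, points) with 95% intervals from edgeR (bars) for the 6 tested members in red and the 6 pathway genes with the smallest p in green. The intervals of Tph2 (-1.79 to 3.37) and Slc6a4 (-1.26 to 3.96) are far wider than those of Maoa (-0.15 to 0.08) and Maob (-0.15 to 0.14).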

How the data were processed

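Polyadenylated RNA was sequenced in 8 libraries after random priming and 15 PCR cycles, per the labels' protocols, with no strand marking stated. Per the submitters' processing notes, fastp 0.22.0, HISAT2 2.1.0 and HTSeq 0.9.1 were used. Those notes name no build or annotation. Per the file headers, read counts and FPKM of every gene stand side by side in the deposited table. The deposited FPKM were recomputed from counts, gene length and summed counts to within a relative difference of 1.11e-09, and served to compare levels between genes.

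Counts were filtered with filterByExpr (14536 of 21959 genes kept), scaled by TMM and tested with edgeR 4.0.16 in R 4.3.3 (robust quasi-likelihood F-test, Benjamini-Hochberg adjustment over all tested genes, threshold 0.05). Log2 CPM used a prior count of 2. Intervals of log2 differences come from the edgeR fit and include the spread between libraries, whereas the Wilson intervals of the ratios and the floors cover counting error only. Alternatives were no filter, DESeq2 size factors, DESeq2 1.42.0, voom with quality weights in limma 3.58.1, a replicate block, each library left out and, chosen after seeing the data, IsoL 1 and IsoL 2 left out. Within each group no deposited library duplicated another, and pairs across the groups were not checked. The edgeR, DESeq2 and voom scripts were tested on simulated data. Figures and ratios used Python 3.11.15, SciPy 1.17.1 and matplotlib 3.10.9.

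The members, gene lists and motifs were chosen with earlier results of these data known. Named genes were the members, the 6 pathway genes with the smallest p, the 10 genes most and 5 least like Tph2, and the extremes of likeness in each marker list, described only for the lists that bear on a member; 1 of these genes is not reported here. Other markers and the genes that passed or did not overlap were named after their values were seen.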

Additional observations from a re-analysis of the deposited data

Results flagged for a closer look

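Among 68 genes and 2 ratios, namely the members, the tested pathway genes, the genes most and least like Tph2 and a few markers, 140 sets of 4 libraries of a group were examined. In 6 of them, or 4.29%, a single library stood apart from the other 3 by Dixon's criterion at 95%, where chance gives about 1 in 20. Maoa was at 78.7 CPM in Model 2, against 85.4, 86.3 and 86.4 in the other Model libraries. Aldh2 was at 53.8 CPM in Model 2, against 63.9, 64.1 and 65.4. Ido2, of the kynurenine route, was at 3.25 CPM in Model 2, with the other Model libraries all lower. Pcbd2, a cofactor-recycling enzyme, was at 1.22 CPM in Model 4, under the other Model libraries. Gata2 was at 5.31 CPM in Model 1, against 7.64, 7.30 and 7.54. Htr1a was at 25.9 CPM in IsoL 1, against 19.4, 18.2 and 18.1. Model 2, where 3 of the 6 lay, also had the highest share of mitochondrially encoded reads, at 5.64%, and its part in these values was not tested.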

How the results depend on the processing

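No tested member passed under any of the 14 alternatives. Fev and Gchfr were fitted in only 2 of them, no filter and DESeq2, and did not pass. The number of genes called was 40, and it was 74 with no filter, 305 in DESeq2, 175 in limma voom, 17 with the replicate block and 6 to 146 with a library left out (6 without Model 4 or IsoL 2, 146 without Model 2). Same-numbered libraries correlated at 0.0199 to 0.0696 and differently numbered ones at -0.139 to 0.143, which cannot show whether the numbers pair the libraries. The block changed no member's call. With it Ddc had an edgeR unadjusted p of 0.0015 (adjusted p = 0.128), against 0.0258 in the main fit. Pathway genes called numbered 2 with no filter, 3 in DESeq2, 1 in limma voom, and 0 to 1 with a library left out. The Slc6a4 to Tph2 ratio had log2 differences of 0.32 to 0.53 with a library left out, each with an exact permutation p of 0.0571, the smallest possible with 3 against 4, and 0.30 without IsoL 1 and IsoL 2. Reversed were the Maob to Maoa ratio without Model 3 (-0.016, range -0.016 to 0.053 with a library left out), Tph1 in limma voom (0.21) and without Model 2 (0.05) or Model 3 (0.11, range -0.58 to 0.11), Maoa without IsoL 1 and IsoL 2 (0.020), and Maob without Model 1, Model 4, IsoL 1 or IsoL 2 (range -0.049 to 0.033) or both of these IsoL libraries (0.081). The cause was not tested. Few reads limit Fev, Gchfr and Tph1.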
